A study of Mus musculus with 12 samples.

Results

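The core circadian clock of mouse liver was examined through 10 genes: Nr1d1, Nr1d2, Per3, Per1, Per2, Cry2, Cry1, Clock, Npas2 and Arntl. The genes were taken by symbol from the 46078 genes of the count table, and each symbol matched 1 Ensembl gene. Liver RNA came from male C57BL/6 mice (C57BL/6J in the methods) with diet-induced obesity, aged 21 weeks and fed a high fat diet from 5 weeks, with 4 mice in each of the 3 groups. VSG mice had a vertical sleeve gastrectomy, in which most of the stomach is removed to leave a narrow tube. Sham-WM mice had sham surgery and were then given restricted food so that their weight matched that of the VSG group, and Sham-Ad lib mice had sham surgery and fed freely. All mice, controls included, had surgery, anaesthesia, the same perioperative drugs and the high fat diet, and were culled 16 days after the operation, after 5 hours without food. Mice were kept in 12 hours of light and 12 hours of dark, and the procedures took place in the light. The hour of cull of each mouse, the order in which groups were culled and the hours at which the Sham-WM mice were fed are not given in the sources used here, so a difference in sampling hour or meal time cannot be told apart from a difference in treatment.

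The clock is a transcriptional loop that runs in nearly every cell of the body. ARNTL (also called BMAL1), paired with CLOCK or with its relative NPAS2, binds E-box motifs and switches on the Per and Cry genes, whose proteins then return to the nucleus and repress ARNTL and CLOCK. In a second loop the same activators switch on Nr1d1 and Nr1d2, which encode the nuclear receptors REV-ERB alpha and beta, and these repress Arntl, Npas2, Clock and Cry1, against the activating ROR receptors. The RNAs therefore peak in sequence through the day, and Arntl and Nr1d1 peak at opposite times. In liver the loop follows meals as well as light and times much of metabolism. The genes are described below in the order of their usual peaks, from Nr1d1 in the light to Arntl at the end of the night.

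The promoters were searched for letters that clock factors are known to bind, and those of Cry1, Per1, Per3 and Nr1d2 are printed below. Windows of Clock and Arntl also hold such letters and are not printed. RefSeq windows on GRCm38.p6, each of 300 bases from 250 before to 50 after a start site, covered 9 of the 10 members with 13 windows, and no window was held for Per2. The letters searched on both strands were the E-box CACGTG, the D-box TTATGTAA, the cyclic AMP response element TGACGTCA and the hexamer AGGTCA, none of which overlapped another in these windows. The E-box was in 2 of the 13 windows, at 60 bases before the Cry1 start and at 166 bases before a Per1 start, and in 7.15% of all 32851 windows. The D-box, which DBP, TEF, HLF and NFIL3 bind, occurred at 205 and at 158 bases before the Per3 start, and was in 0.938% of all windows. The hexamer, part of the element shared by ROR and REV-ERB, was in 4 windows (Nr1d2, Per1, Clock and, 31 bases after the start, Arntl) and in 16.3% of all windows. The cyclic AMP element was in none of the 13 and in 1.79% of all. These matches are letters only, and a window without them says nothing about binding elsewhere in the gene. The 250 bases before the start follow, 5′ to 3′ on the gene's strand, with the matched letters in capitals, for Cry1 (chr10:85185055-85185304, minus strand), Per1 (chr11:69098699-69098948, plus strand), Per3 (chr4:151044666-151044915, minus strand) and Nr1d2 (chr14:18239107-18239356, minus strand).
Cry1: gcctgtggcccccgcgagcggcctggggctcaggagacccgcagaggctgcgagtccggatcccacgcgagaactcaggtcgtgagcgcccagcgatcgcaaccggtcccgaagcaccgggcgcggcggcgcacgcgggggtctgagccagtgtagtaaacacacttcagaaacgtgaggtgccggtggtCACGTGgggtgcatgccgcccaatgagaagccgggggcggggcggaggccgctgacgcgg
Per1: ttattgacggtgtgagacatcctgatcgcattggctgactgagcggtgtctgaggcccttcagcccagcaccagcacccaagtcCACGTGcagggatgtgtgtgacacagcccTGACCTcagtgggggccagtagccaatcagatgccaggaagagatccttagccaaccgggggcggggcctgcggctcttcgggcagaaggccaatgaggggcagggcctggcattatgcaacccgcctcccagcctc
Per3: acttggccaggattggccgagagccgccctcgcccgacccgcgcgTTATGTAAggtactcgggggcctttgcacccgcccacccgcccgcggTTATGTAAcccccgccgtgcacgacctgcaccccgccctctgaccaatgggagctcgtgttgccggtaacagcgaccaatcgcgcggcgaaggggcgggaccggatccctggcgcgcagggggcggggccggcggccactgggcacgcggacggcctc
Nr1d2: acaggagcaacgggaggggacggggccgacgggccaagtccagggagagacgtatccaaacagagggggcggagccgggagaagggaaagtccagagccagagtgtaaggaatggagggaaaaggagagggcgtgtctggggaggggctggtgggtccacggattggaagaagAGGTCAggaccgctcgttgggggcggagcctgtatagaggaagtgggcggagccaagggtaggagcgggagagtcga

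Library totals ranged from 15122520 to 19384076 counts, and the values below are CPM, counts divided by library totals that were scaled by TMM factors to correct for library composition. The labels hold a pair of fields that tie library names to mice in different orders, and groups here follow the animal number that a library name and a title share. When libraries were grouped by the other field, edgeR called 0 of the 9 tested members, and 0 of all 13054 tested genes, in each comparison. The running numbers in the library names form 1 unbroken block per group, so anything that followed that order cannot be told apart from treatment. Hepatocyte markers, such as albumin, summed to 86320 to 163000 CPM per library, and all 8 were detected. Of 4 adipocyte markers none passed the filter on low counts, and their summed level was at most 0.151 CPM. Bulk liver cannot tell fewer cells of a type from less RNA per cell.

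Of the 10 members, 9 had enough counts to be tested with edgeR's quasi-likelihood test, and Npas2 did not. Between Sham-WM and Sham-Ad lib 5 of the 9 passed an adjusted p of 0.05, against 6.99% of all 13054 genes tested. Arntl, Clock and Cry1 were higher in Sham-WM, where 3.53% of all genes were called higher, and Nr1d1 and Nr1d2 were lower, where 3.45% were called lower. Between VSG and Sham-WM 6 of 9 passed, against 26.9% of all genes: Nr1d1 and Nr1d2 were higher in VSG (15.0% of all genes) and Arntl, Clock, Cry1 and Per2 were lower (11.9%). Between VSG and Sham-Ad lib none of the 9 passed in edgeR, none had an unadjusted p under 0.05 and none passed in DESeq2. Of all genes, edgeR called 0.751% in this comparison, 24.1% had an unadjusted p under 0.05 and DESeq2 called 9.21%. The values of the 4 mice did not overlap between the groups for 5 of the 9 members in Sham-WM against Sham-Ad lib (17.6% of all genes), for 5 in VSG against Sham-WM (26.2%) and for 0 in VSG against Sham-Ad lib (9.21%). The median size of the log2 difference over the 9 members was 0.85 in the first comparison, 1.05 in the second and 0.22 in the third, against 0.21, 0.32 and 0.23 over all genes.

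**Figure D1:**
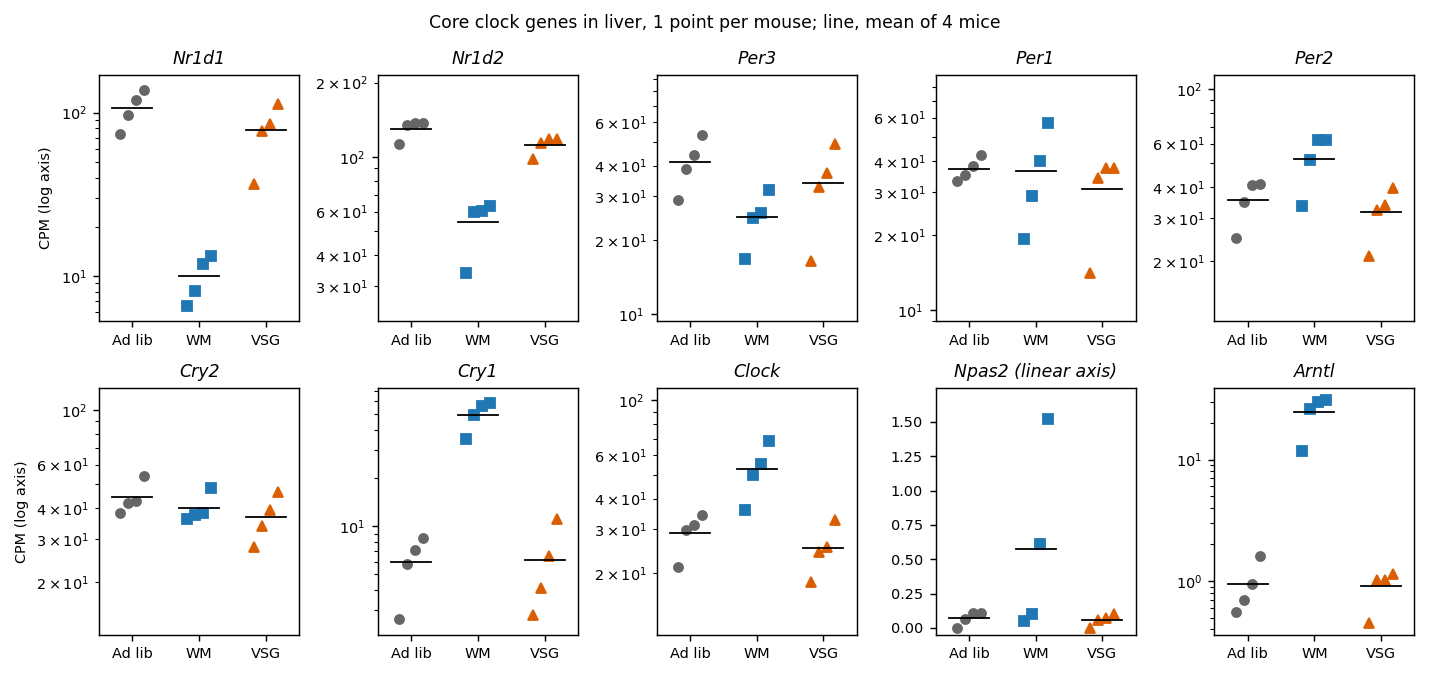
CPM of the 10 core clock genes (vertical axis, logarithmic except for Npas2) in each mouse, by group (Ad lib, Sham-Ad lib; WM, Sham-WM), with the mean of 4 mice as a line; each panel has its own axis. The 4 Sham-WM mice lie apart from both other groups in Nr1d1, Nr1d2, Cry1, Clock and Arntl, and the Sham-Ad lib and VSG mice overlap in all 10 panels.

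Nr1d1 (ENSMUSG00000020889, chr11:98767932-98775333, minus strand), the REV-ERB alpha repressor, was measured at 137, 119, 96.8 and 74.4 CPM in the Sham-Ad lib mice 3F, 4F, 6F and 10F. It stood at 11.8, 8.09, 13.3 and 6.59 CPM in the Sham-WM mice 2F, 9F, 15F and 16F, and at 85.6, 113.6, 36.5 and 77.5 CPM in the VSG mice 1F, 8F, 11F and 18F. Every Sham-WM mouse lay below every mouse of the other groups, and VSG mouse 11F was the lowest of the rest. The Sham-WM mean was 10.7-fold below Sham-Ad lib (log2 fold change -3.42, SE 0.34, edgeR adjusted p = 8.88e-05), and the VSG mean was 7.88-fold above Sham-WM (log2 2.98, SE 0.33, adjusted p = 0.000157). VSG against Sham-Ad lib gave a log2 difference of -0.45 with a 95% interval of -1.09 to 0.20 (adjusted p = 0.373). Among all tested genes, Nr1d1 ranked 16 by p in Sham-WM against Sham-Ad lib. Its exons share 263 bases with Thra on the opposite strand. The strand setting of the counting is not given in the sources used here, so how reads of that stretch were counted is not known.

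Nr1d2 (ENSMUSG00000021775, chr14:18204054-18239127, minus strand) encodes the related repressor REV-ERB beta. Its levels were 137, 112.8, 137 and 134 CPM in Sham-Ad lib mice 3F, 4F, 6F and 10F, against 60.2, 59.5, 63.5 and 33.8 CPM in Sham-WM mice 2F, 9F, 15F and 16F. VSG mice 1F, 8F, 11F and 18F had 98.2, 119, 113.6 and 118 CPM. The direction was that of Nr1d1 with a smaller difference, and the Sham-WM mice again lay below all others. Nr1d2 was 2.40-fold lower in Sham-WM than in Sham-Ad lib (log2 -1.26, SE 0.17, adjusted p = 0.000977) and 2.07-fold higher in VSG than in Sham-WM (log2 1.05, SE 0.17, adjusted p = 0.00146). The VSG to Sham-Ad lib difference was -0.22 on the log2 scale (95% interval -0.57 to 0.14, adjusted p = 0.435).

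The Period genes, which encode the PER repressors, varied less between groups. Per3 (ENSMUSG00000028957, chr4:151003652-151044665, minus strand) ranged from 29.0 to 53.4 CPM among Sham-Ad lib mice, from 16.8 to 31.9 among Sham-WM mice and from 16.4 to 48.9 among VSG mice. The groups overlapped, and Per3 passed in no comparison (Sham-WM against Sham-Ad lib, log2 -0.74, SE 0.29, unadjusted p = 0.0220, adjusted p = 0.145). Per1 (ENSMUSG00000020893, chr11:69095217-69109960, plus strand), also an early responder to hormonal signals, had means of 37.3 ± 4.06 CPM for the Sham-Ad lib mice, 36.3 ± 16.2 for the Sham-WM mice and 30.8 ± 11.3 for the VSG mice (SD, n = 4). Its spread within groups exceeded the differences between them, since Sham-WM mice ran from 19.4 to 57.1 CPM and VSG mouse 11F stood at 14.1 CPM. The log2 difference of Sham-WM from Sham-Ad lib was -0.04, with a 95% interval of -0.72 to 0.64 that leaves room for a change in either direction. The sign of the Per1 difference turned when mouse 6F, 9F or 15F was left out.

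Per2 (ENSMUSG00000055866, chr1:91415982-91459324, minus strand) was the Period gene that passed a test. Sham-Ad lib mice 3F, 4F, 6F and 10F had 34.7, 24.8, 40.7 and 41.0 CPM, and Sham-WM mice 2F, 9F, 15F and 16F had 61.8, 33.4, 51.3 and 61.9 CPM. In VSG the levels were 21.1, 32.4, 39.6 and 33.8 CPM for 1F, 8F, 11F and 18F. Of the Sham-WM mice, 3 were above all others and 9F lay within the range of both other groups. Per2 was 1.64-fold lower in VSG than in Sham-WM (log2 -0.72, SE 0.23, adjusted p = 0.0342), and the call was lost without Sham-WM mouse 2F, 15F or 16F or VSG mouse 1F, with adjusted p between 0.0672 and 0.0957. The log2 difference of Sham-WM from Sham-Ad lib was 0.56 (SE 0.23, unadjusted p = 0.0277, adjusted p = 0.166).

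The Cryptochrome genes encode the partners of the PER proteins and behaved differently from each other. Cry2 (ENSMUSG00000068742, chr2:92403646-92434043, minus strand) had means of 44.2 ± 6.86 CPM for the Sham-Ad lib mice, 40.1 ± 5.54 for the Sham-WM mice and 36.9 ± 7.93 for the VSG mice (SD, n = 4). The groups overlapped, and the adjusted p was 0.677, 0.610 and 0.338 for Sham-WM against Sham-Ad lib, VSG against Sham-WM and VSG against Sham-Ad lib. A non-coding gene on the opposite strand, D930015M05Rik, shares 295 exon bases with Cry2, with a mean of 4.75 counts per library. Cry1 (ENSMUSG00000020038, chr10:85131700-85185064, minus strand) stood at 5.80, 2.63, 7.14 and 8.41 CPM in Sham-Ad lib mice 3F, 4F, 6F and 10F. The Sham-WM mice 2F, 9F, 15F and 16F had 35.1, 49.1, 56.0 and 58.4 CPM, and the VSG mice 1F, 8F, 11F and 18F had 2.81, 4.14, 11.2 and 6.54 CPM. The lowest Sham-WM mouse was above the highest mouse of either other group. Cry1 was 8.30-fold higher in Sham-WM than in Sham-Ad lib (log2 3.05, SE 0.39, adjusted p = 0.000653) and 8.17-fold lower in VSG than in Sham-WM (log2 -3.03, SE 0.39, adjusted p = 0.000417). VSG differed from Sham-Ad lib by 0.02 on the log2 scale (95% interval -0.82 to 0.87), and the sign of that difference changed in several settings.

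Of the activators, Clock (ENSMUSG00000029238, chr5:76209868-76304792, minus strand), whose product pairs with ARNTL, showed the smaller difference. Its levels were 34.3, 31.4, 29.8 and 21.1 CPM in Sham-Ad lib mice 3F, 4F, 6F and 10F, 36.1, 50.1, 55.4 and 68.5 CPM in Sham-WM mice 2F, 9F, 15F and 16F, and 24.3, 25.4, 18.5 and 32.8 CPM in VSG mice 1F, 8F, 11F and 18F. The Sham-WM mice were above all others, by a narrow margin for 2F. Clock was 1.80-fold higher in Sham-WM than in Sham-Ad lib (log2 0.85, SE 0.21, adjusted p = 0.0286) and 2.08-fold lower in VSG than in Sham-WM (log2 -1.06, SE 0.21, adjusted p = 0.00416). The first call was lost, with adjusted p between 0.0515 and 0.0987, when Sham-Ad lib mouse 4F, 6F or 10F or Sham-WM mouse 15F or 16F was left out. The second was lost with RUVs factors of unwanted variation, where the log2 difference was -0.54 (adjusted p = 0.202).

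Npas2 (ENSMUSG00000026077, chr1:39193731-39363236, plus strand), the alternative partner of ARNTL, was near the limit of detection. The counts were 2, 2, 0 and 1 in Sham-Ad lib mice 3F, 4F, 6F and 10F and 1, 2, 1 and 0 in VSG mice 1F, 8F, 11F and 18F. Sham-WM mice 2F, 9F, 15F and 16F had 1, 12, 2 and 27 counts. Only mice 9F and 16F were above the 3 counts taken as the floor, and no fold change is given. With no filter on low counts, Npas2 passed in VSG against Sham-WM (edgeR adjusted p = 0.0361) and not in Sham-WM against Sham-Ad lib (adjusted p = 0.113).

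Arntl (ENSMUSG00000055116, chr7:113207465-113314126, plus strand) showed the largest difference of the 9 tested members. The Sham-Ad lib mice 3F, 4F, 6F and 10F had 0.558, 1.61, 0.703 and 0.941 CPM, from 10 to 30 counts. The Sham-WM mice 2F, 9F, 15F and 16F had 11.8, 29.7, 25.9 and 31.1 CPM, from 232 to 580 counts. VSG mice 1F, 8F, 11F and 18F had 1.02, 1.02, 0.452 and 1.14 CPM, from 6 to 20 counts. No Sham-WM mouse came near the others, though 2F was well below the other 3. Arntl was 25.6-fold higher in Sham-WM than in Sham-Ad lib (95% interval 14.6 to 44.8, log2 4.68, SE 0.38, adjusted p = 4.42e-05) and 26.4-fold lower in VSG than in Sham-WM (log2 -4.72, SE 0.38, adjusted p = 2.11e-05). By p it ranked 2 of 13054 genes in Sham-WM against Sham-Ad lib, and 6 in VSG against Sham-WM. Between VSG and Sham-Ad lib the log2 difference was -0.05, with an interval of -0.98 to 0.89, so differences between 1.97-fold lower and 1.85-fold higher in VSG lie within it.

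**Figure D2:**
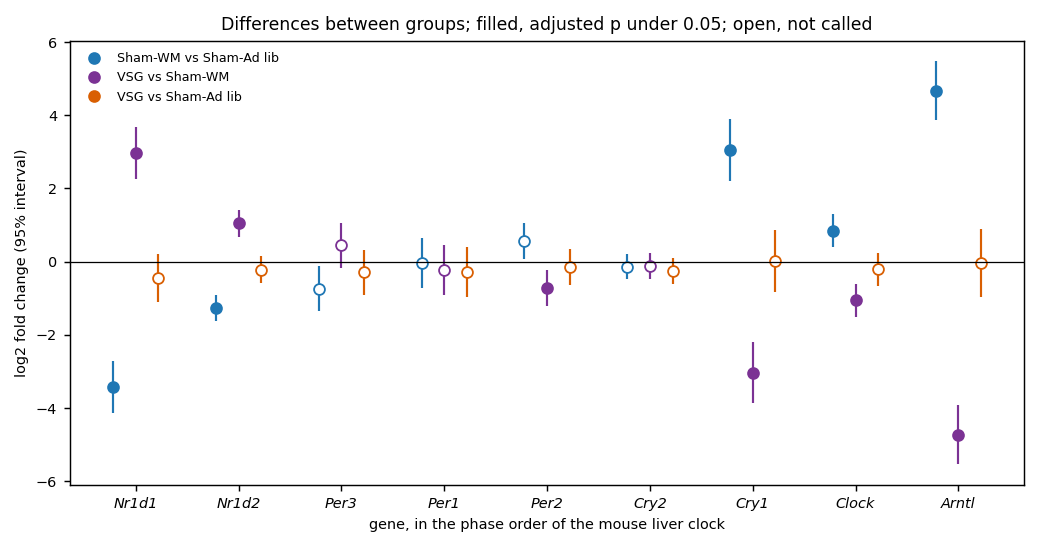
Log2 fold change (vertical axis) of the 9 tested members, in the phase order of the mouse liver clock (horizontal axis), for the 3 comparisons, with 95% intervals from edgeR as bars; filled points passed an adjusted p of 0.05 and open points did not. Sham-WM against Sham-Ad lib runs from -3.42 for Nr1d1 to 4.68 for Arntl. VSG against Sham-WM, which uses the same Sham-WM mice, takes the opposite sign for the 5 members called in both. The 9 intervals of VSG against Sham-Ad lib cross 0.

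The members could be set against each other within a mouse only after dividing by exon length. In CPM per kb, Nr1d1 had the highest mean of the 10 in Sham-Ad lib (34.7 ± 8.83) and in VSG (25.4 ± 10.4), followed by Nr1d2 (24.1 ± 2.17 and 20.7 ± 1.77), and Arntl was the ninth in both, at 0.127 ± 0.0619 and 0.121 ± 0.0410 (SD, n = 4). In VSG the means of Nr1d1 and Nr1d2 differed by less than the spread of Nr1d1. Nr1d2 exceeded Nr1d1 in VSG mouse 11F (21.0 against 11.9) and in Sham-Ad lib mouse 10F (24.8 against 24.2). In Sham-WM the highest was Cry1 (14.9 ± 3.13), followed by Nr1d2 (10.0 ± 2.54) and Per2 (8.89 ± 2.29), while Arntl (3.27 ± 1.17) and Nr1d1 (3.23 ± 1.02) were the seventh and the eighth and differed by less than their spread. Npas2 was the lowest of the 10 in every group. In Sham-Ad lib and VSG the third to the fifth places went to Cry2, Per1 and Per2, and these neighbours differed by less than their spread. The ratio of Nr1d1 to Arntl per kb was 181 to 600 in the Sham-Ad lib mice and 167 to 272 in the VSG mice. In the Sham-WM mice it was 2.44 in 2F, 1.254 in 15F, 0.666 in 9F and 0.517 in 16F. So the RNA of the repressor exceeded that of its target in each mouse of the first 2 groups, while the Sham-WM mice lay on both sides of 1.

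**Figure D3:**
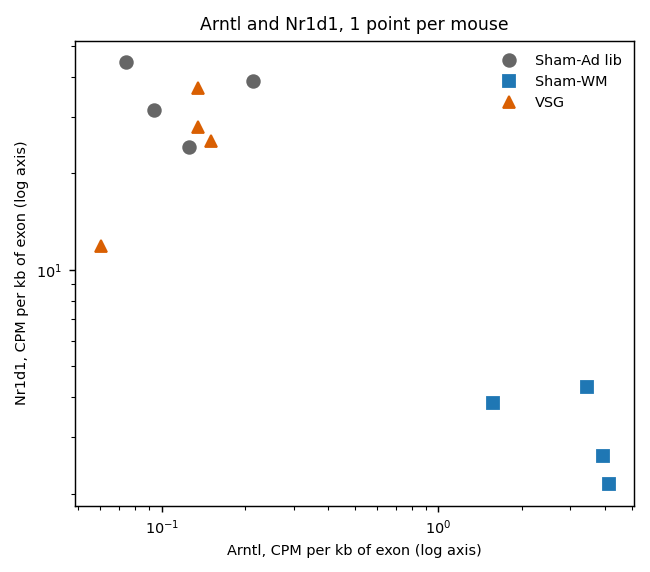
Arntl (horizontal) against Nr1d1 (vertical), both in CPM per kb of exon on logarithmic axes, with 1 point per mouse. The Sham-WM mice form their own region at high Arntl and low Nr1d1, and the Sham-Ad lib and VSG mice share the region at low Arntl and high Nr1d1.

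Within the groups the members did not vary together by any relation that passed the test. After the group mean of each gene was removed, 0 of 45 pairs of members had an adjusted p under 0.05 for Pearson's r or for Spearman's rho over the 12 mice (100000 permutations of mice within groups), and 5 pairs had an unadjusted Pearson p under 0.05. The lowest p was that of Per3 and Nr1d2 (r = 0.67, permutation p = 0.00976, adjusted p = 0.439; rho = 0.50, p = 0.0930), with r = 0.50 without the 2 mice farthest from the Per3 median. Next came Cry1 with Per2 (r = 0.67, permutation p = 0.0240) and with Per3 (r = 0.69, permutation p = 0.0406), both with adjusted p = 0.441. Without the 2 mice farthest from the Cry1 median these r were 0.32 and 0.35. Cry1 and Nr1d1 gave r = -0.67 (permutation p = 0.0414, adjusted p = 0.441, and rho = -0.61 with p = 0.0514) and -0.80 without the 2 farthest mice. Npas2 and Nr1d2 gave r = -0.74 (permutation p = 0.0490, adjusted p = 0.441, and rho = -0.38 with p = 0.413). Without the 2 farthest mice this r was -0.36, and Npas2 was near the limit of detection. Arntl and Nr1d1, which differ in opposite directions between the groups, gave r = 0.14 within them (permutation p = 0.683, adjusted p = 0.824; rho = -0.09, p = 0.799). Single mice could still stand at the edge of their group in many members at once. Sham-WM mouse 16F was the highest of its group in 6 members and the lowest in 4, which accounts for all 10. The other 11 mice were at an edge for 2 to 7 members, and in a group of 4 some mouse must be at each edge. Sham-Ad lib mouse 10F and VSG mouse 11F were each at an edge for 7, 11F being the highest in Cry1, Per2 and Per3 and the lowest in Nr1d1, Per1, Clock and Arntl.

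The wider clock network was read from 4 lists with 39 tested genes. EdgeR called 0 of the 39 in VSG against Sham-Ad lib, where 9 had an unadjusted p under 0.05 (24.1% of all genes) and DESeq2 called 3 (9.21% of all genes). In Sham-WM against Sham-Ad lib 9 of 39 (23.1%) passed, 4 higher and 5 lower, against 6.99% of all genes. In VSG against Sham-WM 13 of 39 (33.3%) passed, 5 higher and 8 lower, which is near the 26.9% of all genes. Most of these were secondary loop regulators, of which 5 and 7 of 9 passed.

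Among the secondary loop regulators, Dbp, an activator of D-box genes, was at 110.9 to 166 CPM in the Sham-Ad lib mice, 7.60 to 23.1 in the Sham-WM mice and 98.5 to 153 in the VSG mice. It was 10.2-fold lower in Sham-WM than in Sham-Ad lib (log2 -3.35, SE 0.28, adjusted p = 4.42e-05). Ciart, a repressor of CLOCK and ARNTL, was at 14.7 to 20.3 CPM in the Sham-Ad lib mice, 1.73 to 3.46 in the Sham-WM mice and 12.2 to 17.1 in the VSG mice, and had the lowest p of the 4 lists (log2 -2.85, SE 0.21, adjusted p = 4.42e-05). Bhlhe41 (DEC2), which competes for E-boxes, fell by 3.02 on the log2 scale (adjusted p = 0.000347). These 3 genes and Tef, another D-box activator, were lower in Sham-WM than in Sham-Ad lib and higher in VSG than in Sham-WM. Nfil3, the D-box repressor, took the other direction, with a log2 difference of 1.19 (SE 0.22, adjusted p = 0.00692) in Sham-WM against Sham-Ad lib and of -1.26 (SE 0.22, adjusted p = 0.00218) in VSG against Sham-WM. It stood at 12 to 23.1 CPM in the Sham-Ad lib mice, 26.4 to 44.8 in the Sham-WM mice and 11.8 to 18.1 in the VSG mice, so the Sham-WM mice lay above all others. Rora and Bhlhe40 passed only in VSG against Sham-WM, both lower in VSG (log2 -0.52 and -0.49, adjusted p = 0.0176 and 0.0260), and the difference between the comparisons was not tested. Arntl2 and Hlf passed in no comparison, and Rorb was below the filter.

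Of the 10 clock kinases and ubiquitin ligases, which set the pace of the loop, none passed in edgeR in Sham-WM against Sham-Ad lib (6.99% of all genes), where 0 had an unadjusted p under 0.05, DESeq2 called 0 and the largest log2 difference was 0.20. In VSG against Sham-WM edgeR called 1 of the 10 and DESeq2 called 2, against 26.9% and 31.3% of all genes. Gsk3b, a kinase that acts on several clock proteins, was lower in VSG than in Sham-WM (log2 -0.37, adjusted p = 0.0282). Of the 10 cofactors, edgeR called 1 in Sham-WM against Sham-Ad lib and 2 in VSG against Sham-WM. These counts are near the 6.99% and 26.9% of all genes. Sfpq, a PER-associated RNA-binding protein, was higher in Sham-WM than in Sham-Ad lib (log2 0.61, adjusted p = 0.0256) and lower in VSG than in Sham-WM (log2 -0.51, adjusted p = 0.0233). Ep300, an acetyltransferase, was lower in VSG than in Sham-WM (log2 -0.52, adjusted p = 0.0463), and its values overlapped between these groups.

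Of the 10 liver clock outputs, 3 passed in both comparisons with Sham-WM, where 6.99% (against Sham-Ad lib) and 26.9% (against VSG) of all genes passed, so the second count is near that of all genes. Elovl3, a fatty acid elongase with a strong daily rhythm in male liver, was at 35.6 to 62.0 CPM in the Sham-Ad lib mice, 136 to 321 in the Sham-WM mice and 27.5 to 35.4 in the VSG mice. It was 4.58-fold higher in Sham-WM than in Sham-Ad lib (log2 2.20, SE 0.24, adjusted p = 0.000200) and 7.13-fold lower in VSG than in Sham-WM (log2 -2.83, SE 0.24, adjusted p = 3.15e-05). Insig2, which restrains sterol synthesis, took the same direction (log2 1.39 and -1.68, adjusted p = 0.00791 and 0.00139). Por, the electron donor of cytochromes P450, took the opposite one (log2 -0.81 and 0.59, adjusted p = 0.0212 and 0.0340).

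**Figure D4:**
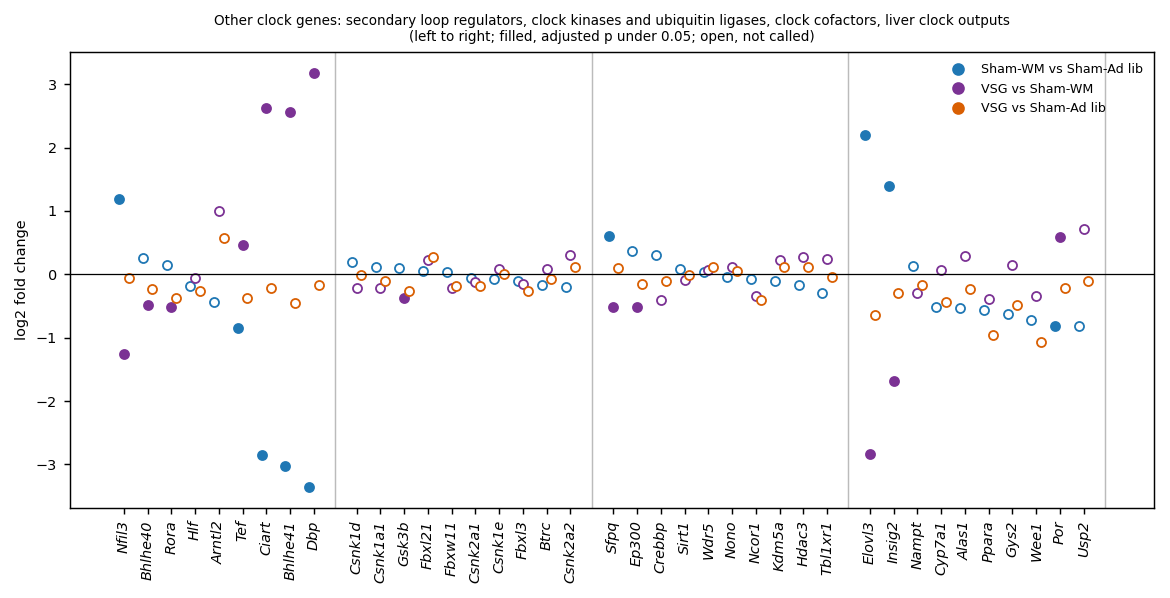
Log2 fold change (vertical axis) of the 39 tested genes of 4 clock lists, separated by vertical lines, for the 3 comparisons; filled points passed an adjusted p of 0.05. In Sham-WM against Sham-Ad lib the called genes are Nfil3, Sfpq, Elovl3 and Insig2 (higher) and Tef, Ciart, Bhlhe41, Dbp and Por (lower).

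Across the 12 libraries, the genes with the pattern most like that of Arntl among 10823 genes included Desi2, Leo1, Cldn1 and Abtb2, with Pearson r of log2 CPM from 0.98 to 0.97. For Nr1d1 they were Klhdc7a, 5031439G07Rik, Arsa, Rasa3 and Dbp (0.96 to 0.94), for Cry1 they included Caln1, Mreg, Als2cl and Pdhb (0.96 to 0.94), and for Per2 they were Pus7, Lrrc28, Usp10, Wdr36 and Slc25a37 (0.92 to 0.89). These r are descriptions over 3 groups of 4 libraries, and for Arntl, Nr1d1 and Cry1 the points fall into the Sham-WM libraries and the rest.

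Lists of genes that answer signals known to set the liver clock were also read, and their part in the clock genes' differences was not tested. In Sham-WM against Sham-Ad lib 3 of 7 glucocorticoid-induced, 2 of 8 temperature-responsive, 2 of 6 immediate early and 3 of 10 fasting and feeding genes passed, against 6.99% of all genes. Of the 7 glucocorticoid-induced genes, Dusp1 was higher in Sham-WM (log2 1.56, adjusted p = 0.0211) and Fkbp5 and Klf9 were lower (log2 -0.88 and -0.68, adjusted p = 0.0484 and 0.0284). Of 8 temperature-responsive genes the chaperones Hsp90aa1 and Hsph1 were higher in Sham-WM than in Sham-Ad lib (log2 1.61 and 1.18, adjusted p = 0.000374 and 0.0153). Of 6 tested immediate early genes Egr1 and Junb were lower (log2 -3.69 and -2.33, adjusted p = 0.0134 for both). Sham-Ad lib mouse 4F had 147 CPM of Egr1, against 12.4 to 27.5 in the other 3 mice of its group and 2.53 to 7.63 in Sham-WM. Of 10 fasting and feeding genes G6pc, the last enzyme of glucose release, and Pdk4, which restrains glucose oxidation, were higher in Sham-WM than in Sham-Ad lib (log2 2.13 and 1.66, adjusted p = 0.0170 and 0.00181), and Cpt1a, the gate of fatty acid oxidation, was lower (log2 -0.75, adjusted p = 0.0205). In VSG against Sham-WM 2 of 7, 2 of 8, 3 of 6 and 3 of 10 of the same lists passed, counts that for most of these lists are near the 26.9% of all genes, and in VSG against Sham-Ad lib edgeR called none, with 0, 1, 0 and 6 at an unadjusted p under 0.05 and 0, 0, 0 and 3 called by DESeq2, against 24.1% and 9.21% of all genes.

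Every Kupffer cell and neutrophil marker had a positive log2 difference in VSG against either other group. All 8 Kupffer cell markers and all 7 neutrophil markers were called higher in VSG than in Sham-WM, against 15.0% of all genes. In VSG against Sham-Ad lib 2 of the 8 and 5 of the 7 passed, against 0.751% of all genes. The neutrophil markers Mpo, Elane and Ngp had at most 1, 6 and 3 counts in any Sham-WM mouse. In every VSG mouse they had at least 46, 19 and 133 counts. These genes passed the filter on low counts through the VSG libraries, so their calls as higher in VSG carry no separate weight. The Kupffer list summed to 522 to 1485 CPM in the VSG mice, 154 to 506 in Sham-Ad lib and 139 to 239 in Sham-WM, and the neutrophil list to 32.4 to 941, 1.35 to 20.6 and 2.51 to 3.87. No marker of either list was at 0 in every library of a group. In Sham-WM against Sham-Ad lib edgeR called none of the 15 markers, none had an unadjusted p under 0.05 and DESeq2 called none. Of all genes these shares were 6.99%, 21.6% and 11.1%. All 8 Kupffer cell and all 7 neutrophil markers had negative log2 differences in that comparison (medians -0.42 and -1.40). The values of the 2 groups overlapped for all 15, and the Sham-Ad lib mice spread widely in some of them. Marco ran from 6.14 to 57.5 CPM in Sham-Ad lib and from 5.57 to 12.6 in Sham-WM. S100a8 ran from 0.108 to 4.13 CPM in Sham-Ad lib and from 0.450 to 0.922 in Sham-WM. The shared sign is therefore not read as a difference in these cells. The part of these cell types in the clock genes' differences was not tested. Of 6 stellate cell markers 1 was called in Sham-WM against Sham-Ad lib, where 6.99% of all genes were called. It was Lrat, whose enzyme turns retinol into its storage esters, higher in Sham-WM (log2 0.82, edgeR adjusted p = 0.0384). The 6 markers split into 3 positive and 3 negative log2 differences. The stellate list summed to 282 to 399 CPM in Sham-Ad lib, 275 to 352 in Sham-WM and 189 to 316 in VSG. Of 6 liver endothelial markers edgeR and DESeq2 called 0 in Sham-WM against Sham-Ad lib, where 6.99% and 11.1% of all genes were called. Of these 6, 1 had an unadjusted p under 0.05, against 21.6% of all genes. Of the 8 hepatocyte markers, 2 passed in VSG against Sham-WM, which is near the 26.9% of all genes. These were Alb and Cps1, both lower in VSG (log2 -0.73 and -0.83, edgeR adjusted p = 0.0294 and 0.0174). Of the 8, 6 had negative and 2 had positive log2 differences. The part of hepatocyte markers in the clock genes' differences in that comparison was not tested.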

How the data were processed

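Per the study's methods, poly(A) RNA of each liver was made into directional libraries, and the authors aligned paired reads to mm10 with TopHat2 2.1.1 and counted reads on genes with featureCounts. The deposited table holds whole-number counts per Ensembl gene for 12 libraries, not normalized. The annotation release and the strand setting are not given in the sources used here. Symbols and positions came from GENCODE M21 on mm10, which matched 45229 of 46078 genes.

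Genes were kept by edgeR's filterByExpr (minimum count 10, minimum total 15), which kept 13054 genes that hold 99.881% or more of every library's counts. The 3 groups were fitted together over the 12 libraries, scaled by TMM factors (0.879 to 1.04), and contrasted by the quasi-likelihood test of edgeR 4.0.16 (R 4.3.3), two-sided, with Benjamini-Hochberg adjustment over all tested genes and a threshold of 0.05. Log2 CPM used a prior count of 2. Depth limits the genes with few counts, and counts without molecular identifiers cover sampling error only. No pair of libraries of a group agreed within sampling noise (chi-square per gene of at least 17.2). The labels give each library an animal number, so p-values measure the spread between mice.

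The 10 members and the other lists were chosen with earlier results of these data known. The named genes are the 10 members, up to 4 genes with the lowest p among those of each other list that passed in a comparison, and the 5 genes most like each of Arntl, Nr1d1, Per2 and Cry1, less those not reported here. Further genes of the regulator list (Rora, Bhlhe40, Arntl2, Hlf and Rorb), the hepatocyte markers Alb and Cps1 and the stellate marker Lrat were named after their values were seen. Alternatives were DESeq2 1.42.0, other size factors, other filters, fits of 2 groups, 2 RUVs or RUVr factors of unwanted variation (the study's methods use RUVSeq, which was written out from its definition here), the other label field, and leaving out each library. The edgeR fit and the test of pairs were tested on simulated data.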

Additional observations from a re-analysis of the deposited data

Results flagged for a closer look

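In 30 groups of 4 mice (10 members in 3 groups), 4 held a mouse whose distance from the nearest of the others, divided by the range of the group, was above Dixon's critical value for 4 samples. By chance about 1 in 20 groups is picked out in this way. Cry2 stood at 48.3 CPM in Sham-WM mouse 9F, against 36.2 to 38.3 in the other 3. Nr1d2 stood at 112.8 CPM in Sham-Ad lib mouse 4F, against 134 to 137, and at 33.8 CPM in Sham-WM mouse 16F, against 59.5 to 63.5. Per1 stood at 14.1 CPM in VSG mouse 11F, against 34.3 to 37.6. Each of these 4 mice was kept in every main value, and the calls of these 3 genes did not change when the mouse was left out.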

How the results depend on the processing

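No paired analysis was possible because the groups share no animal number. The calls of Nr1d1, Nr1d2 and Cry1 in the 2 comparisons with Sham-WM, and those of Arntl, kept their direction and stayed past the threshold under every alternative except grouping by the other label field; the filter of at least 10 counts in every library gave no value for Arntl. With that field edgeR called 0 members, 0 other clock genes and 0 of all 13054 genes in each comparison. Its log2 differences that changed sign were, for VSG against Sham-Ad lib, -1.41 (Cry1), 0.20 (Per1), 1.26 (Nr1d1) and 0.26 (Nr1d2); for Sham-WM against Sham-Ad lib, -0.83 (Arntl), -0.26 (Clock), -1.09 (Cry1), 0.11 (Cry2), -0.56 (Per2), 1.37 (Nr1d1) and 0.31 (Nr1d2); and for VSG against Sham-WM, 0.22 (Per1), 0.21 (Per2), -0.12 (Per3), -0.12 (Nr1d1) and -0.048 (Nr1d2).

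Other sign changes concerned members that were not called. For VSG against Sham-Ad lib, Cry1 was at -0.0018 with DESeq2, -0.0096 with median-of-ratios factors, -0.031 with no filter and -0.0295 with RUVr factors, and RUVs factors gave 0.16 for Clock and 0.15 for Per2. For VSG against Sham-WM, RUVs factors gave 0.0062 for Cry2 and 0.097 for Per1. Leaving out 1 mouse at a time moved Arntl from -0.23 to 0.34 and Cry1 from -0.42 to 0.26 in VSG against Sham-Ad lib, and Per1 from -0.34 to 0.17 in Sham-WM against Sham-Ad lib and from -0.45 to 0.065 in VSG against Sham-WM. Under RUVs factors Clock and Per2 were no longer called in VSG against Sham-WM (adjusted p = 0.202 and 0.524), and under RUVr factors Per2 was called in Sham-WM against Sham-Ad lib (adjusted p = 0.0450).

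Among the 39 other clock genes, DESeq2 called 3 and RUVr factors 7 in VSG against Sham-Ad lib, where edgeR called 0 (of all genes, 9.21%, 23.2% and 0.751%), and between 0 and 3 were called when a mouse was left out, with 3 without Sham-Ad lib mouse 4F. In VSG against Sham-WM, RUVs factors gave 6 and RUVr factors 23 in place of 13 (of all genes, 4.01%, 42.2% and 26.9%), and leaving out a mouse gave 7 to 14, with 7 without Sham-WM mouse 16F and 8 without 15F. Between 0 and 1 pair of members passed when a mouse was left out, the 1 without Sham-WM mouse 2F. The cause was not tested for any of these changes.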
